A study of Homo sapiens with 4 samples.

Results

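The regions described here carried a CDK8 peak in both hypoxia libraries of HCT116, a long-established cell line from a human colorectal cancer, and lay more than 10 kb from any CDK8 peak of the normoxia library. They were chosen by the presence and absence of peaks in the deposited lists. Where peaks of the 3 lists touched or overlapped they were joined, which gave 28023 regions on chromosomes 1 to 22 and X. A region was kept where both hypoxia lists had a peak in it, the normoxia list had none, and no normoxia peak lay within 10 kb of either edge. The rule found 498 regions, 1.78% of all regions. They are called normoxia-distant regions below.

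The series mapped CDK8 by chromatin immunoprecipitation and sequencing (ChIP-seq). It holds 1 CDK8 library of cells in normoxia for 24 h, 2 of cells in hypoxia (1% O2) for 24 h, and 1 input library of unprecipitated DNA, which was not analysed here. The cells were otherwise untreated HCT116 in serum-supplemented medium, and the labels name the same antibody lot for all 3 precipitations. Whether the hypoxia replicates are separate cultures is not stated in the labels, and normoxia has no replicate.

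CDK8 is the kinase of a module of Mediator, the complex that connects transcription factors at enhancers and promoters to RNA polymerase II. The module, which also holds cyclin C, MED12 and MED13, binds Mediator reversibly and can restrain or support transcription. When oxygen is low, the HIF transcription factors are stabilised and switch on genes of glycolysis, blood vessel growth and oxygen sensing. CDK8 is known as a coactivator of HIF1A at such genes in HCT116 cells. A peak marks DNA that came down with CDK8 directly or through Mediator and the factors it contacts, so a peak seen in hypoxia and not in normoxia is where CDK8 recruitment under low oxygen would be sought. The coordinates are those of GRCh37/hg19. No annotation or sequence of that build was used, so the regions are given by position, without a gene name and without their bases.

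The 3 lists differ in length, with 19859 normoxia peaks, 21869 peaks of hypoxia replicate 1 and 14251 of hypoxia replicate 2 on chromosomes 1 to 22 and X. Read depth is unknown, and a peak missing from a list may have lain just under the authors' threshold. Each peak has a score of the authors' own with an unstated scale. It is used here only as a percentile within its list, where 100 is the best peak. No test between conditions was run, since permuting the labels of 3 libraries exactly cannot give a p below 0.333. The error was instead read from 2 comparison sets made by the same rule with a hypoxia list as the one that is missing. These sets hold regions in normoxia and hypoxia replicate 2 that lie over 10 kb from any peak of hypoxia replicate 1, and regions in normoxia and hypoxia replicate 1 that lie over 10 kb from any peak of hypoxia replicate 2. Intervals on shares are Wilson 95% intervals and those on medians come from order statistics. Both treat regions as independent and cover neither the differences between cultures nor those between libraries.

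Normoxia-distant regions were the smallest of the 3 sets. The 2 hypoxia lists shared 10187 regions, of which 498 (4.89%, 4.49 to 5.32) were normoxia-distant. Normoxia and hypoxia replicate 2 shared 11164 regions, and 1117 of these (10.0%, 9.46 to 10.6) were distant from hypoxia replicate 1. Normoxia and hypoxia replicate 1 shared 13756 regions, and 2625 of these (19.1%, 18.4 to 19.7) were distant from hypoxia replicate 2. Each hypoxia library thus lacked more of what the other 2 libraries shared than normoxia did. These shares are what the rule selects on and are a description only. When every list was cut to its 14256 best peaks (equal list sizes), the shares became 8.70%, 17.8% and 13.4%, so the order of the comparison sets turned while the normoxia-distant share was again the lowest.

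The distance rule removed a similar part of each set. Of the 894 regions in both hypoxia lists and without a normoxia peak, 55.7% (52.4 to 58.9) were past 10 kb. For regions lacking only hypoxia replicate 1 the share was 59.7% (57.5 to 61.9), and for those lacking only hypoxia replicate 2 it was 58.8% (57.4 to 60.3). The 396 hypoxia regions that were dropped sat mostly close to a normoxia peak, with a median gap of 1.45 kb. A normoxia peak lay under 2 kb away from 218 of the 894, from 2 to 5 kb away from 82 and from 5 to 10 kb away from 96. A further 85 lay between 10 and 20 kb, a wider bin than that from 5 to 10 kb. The distances thus ran on past the limit, and whether 10 kb is a natural break in them was not tested. The 3 normoxia-distant regions nearest the limit were chr6:42928487-42928901 at 10.03 kb, chr8:25052849-25053203 at 10.28 kb and chr12:125412676-125413221 at 10.4 kb. The 3 nearest on the other side were chr11:118122685-118123122 at 9.997 kb, chr10:112271433-112272304 at 9.96 kb and chrX:49012563-49012905 at 9.862 kb.

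Normoxia-distant regions ranked low in both hypoxia lists. Their median percentile was 39.2 (36.6 to 42.5) in hypoxia replicate 1 and 31.9 (28.4 to 35.4) in hypoxia replicate 2. Regions in all 3 lists, 9293 in number, had medians of 71.1 and 61.5 in these lists. Percentiles in the lists that hold a region are partly set by the rule, which asks for absence from the third list. Regions in all 3 lists are chosen the other way, by presence, so the contrast in rank is a description only. The set distant from hypoxia replicate 2 had a median of 48.9 in hypoxia replicate 1. The set distant from hypoxia replicate 1 had a median of 42.0 in hypoxia replicate 2. Both percentiles were under 50 in 257 of the 498 regions (51.6%), and both were at 50 or above in 68 (13.7%). Only 13 regions (2.61%) reached 70 in both lists and 2 (0.402%) reached 80 in both. The comparison sets were placed by the 2 lists that hold them. In the sets distant from hypoxia replicates 1 and 2, both percentiles were under 50 in 39.7% and 40.6%. Both were at 50 or above in 23.6% and 22.9%, at 70 or above in 6.71% and 6.93%, and at 80 or above in 3.04% and 2.74%. The 396 hypoxia regions within 10 kb of a normoxia peak had medians of 37.4 and 30.5, inside the intervals of the distant ones.

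The share of hypoxia regions that were normoxia-distant fell with rank. A region that both hypoxia lists hold was placed by the lower of its 2 percentiles. Of 2114 regions at or under percentile 20, 229 (10.8%, 9.58 to 12.2) were normoxia-distant, against 2 of 1768 regions above percentile 80 (0.113%, 0.0310 to 0.412). The same fall was seen in both comparison sets, from 17.1% to 1.64% for regions distant from hypoxia replicate 1 and from 33.6% to 2.85% for those distant from hypoxia replicate 2. Above percentile 80 the comparison shares rest on 34 of 2071 and 72 of 2527 regions (intervals 1.18 to 2.29 and 2.27 to 3.57). These shares, again, are what the rule selects on, and regions are not replicates. The order of the 3 shares is a description only. With equal list sizes the 3 shares above percentile 80 were 0.143%, 3.63% and 2.14%, in which the normoxia-distant share was again the lowest. A CDK8 region that ranked high in both hypoxia libraries was nearly always listed in normoxia or within 10 kb of a normoxia peak.

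**Figure D1:**
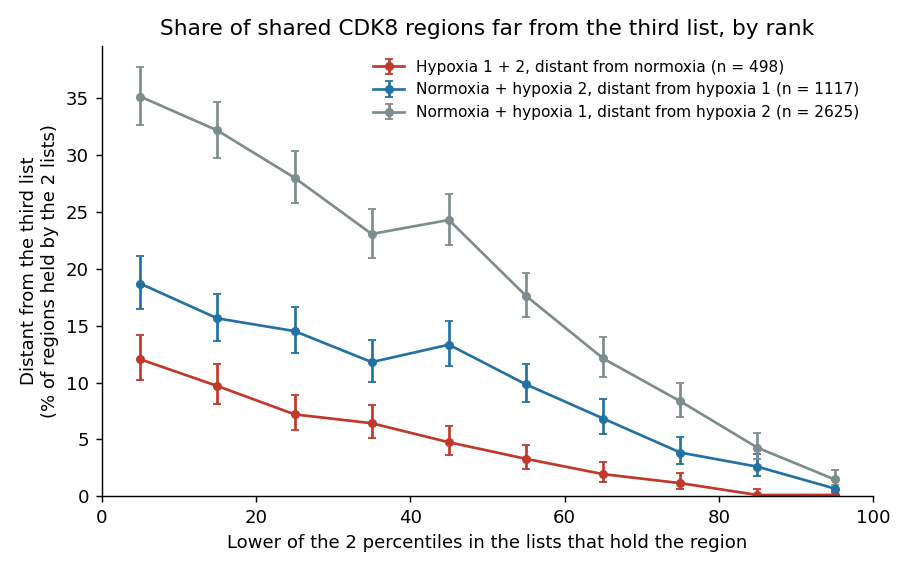
Share of the regions held by 2 lists that lie over 10 kb from any peak of the third list (y axis, percent), by the lower of the region's 2 percentiles (x axis, bins of 10). Points are shares and bars are Wilson 95% intervals. All 3 lines fall overall from left to right, each with 1 small rise between neighbouring bins, and the normoxia-distant line (498 regions) stays under the lines of the comparison sets (1117 and 2625 regions).

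Of the 10 normoxia-distant regions with the highest lower percentile, the first was chr17:64271709-64272063, 355 bp wide, with a percentile of 91.5 in hypoxia replicate 1, one of 92.2 in hypoxia replicate 2, and the nearest normoxia peak 26.4 kb away. The second was chr12:125412676-125413221, 546 bp wide, at percentiles 88.3 and 86.0 in hypoxia replicates 1 and 2. Its nearest normoxia peak was 10.4 kb away, so that it passed the distance rule by little. These are the 2 regions above percentile 80 in both lists. The third, chr15:95790356-95790630, ranked at 82.8 and 79.7 and lay much farther out, 310.1 kb from the nearest normoxia peak.

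The next 4 regions ranked between percentiles 73.0 and 78.2 in both lists, with 1 exception. A region of 319 bp, chr4:177191862-177192180, was at 74.4 and 76.7 in hypoxia replicates 1 and 2, with normoxia 48.9 kb away. On chromosome 5, chr5:142060485-142060772 was at 74.0 and 78.2, with normoxia 35.6 kb away, and on chromosome 3, chr3:23727150-23727653 was at 73.9 and 73.4, with normoxia 16.8 kb away. The exception was chr5:133968345-133968730, which was at 92.3 in hypoxia replicate 1 but at 73.0 in hypoxia replicate 2. Its nearest normoxia peak was 104.8 kb away. Each of these 7 regions was a single peak in each hypoxia list.

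The remaining 3 of the 10 lay where hypoxia replicate 1 stands apart from the other libraries. In 21 windows of 1 Mb, regions of hypoxia replicate 1 alone numbered 10 or more and made up 80% or more of what any list held. Of the normoxia-distant regions, 4 lay in these windows. They include 3 of the best 10, namely chr19:27738332-27739948 (percentiles 75.9 and 72.9 in hypoxia replicates 1 and 2), chr19:27732987-27733557 (89.0 and 72.5) and chr2:133196272-133196588 (72.1 and 71.6). The pair on chromosome 19 began 6510 bp and 1165 bp past a stretch of 3.55 Mb without any region, the longest on that chromosome, which is known to hold its centromere. The nearest normoxia peaks were 544.0 kb and 550.4 kb away. The windows also held 3 of the 1117 regions distant from hypoxia replicate 1 and 3 of the 2625 distant from hypoxia replicate 2. Without the windows, 27357 of all 28023 regions were left, and 10169 of the 10187 shared by the 2 hypoxia lists. Of the normoxia-distant regions, 494 were left, with 7 of the best 10. What part these windows have in the 3 high ranks was not tested.

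The best regions of the comparison sets had higher percentiles than those of the normoxia-distant set. Among regions distant from hypoxia replicate 1, chr17:55333490-55333950 was at percentile 95.4 in normoxia and at 93.6 in hypoxia replicate 2. It was followed by chr22:39541320-39541991 (92.1 and 96.5) and chr8:144512735-144513730 (91.8 and 95.6). Among regions distant from hypoxia replicate 2, chr4:187745833-187746613 was at percentile 97.4 in normoxia and 98.8 in hypoxia replicate 1. Next came chr7:101740915-101741469 (96.7 and 96.6) and chr2:110086918-110087348 (96.5 and 97.6). All 6 had lower percentiles above 91.47, the lower percentile of the first normoxia-distant region. A high-ranking region that 2 libraries share and the other lacks was thus found whichever library was left out. The percentiles were higher where the missing library was a hypoxia one, but they come from different pairs of lists, which differ in length. The comparison sets are larger, with 1117 and 2625 regions against 498, and the best of a larger set tends to rank higher.

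The 2 hypoxia libraries ranked many normoxia-distant regions differently, with a median difference close to that of the other sets. The median difference between the 2 percentiles was 17.7 points (15.4 to 19.6), against 17.6 in regions of all 3 lists and 18.8 and 18.5 in the sets distant from hypoxia replicates 1 and 2. The 2 percentiles lay within 10 points of each other in 136 normoxia-distant regions (27.3%, 23.6 to 31.4), against 29.5% and 28.5% of the comparison sets, and over 50 points apart in 48. Spearman's rho of the percentiles was 0.289 over the 492 regions with 1 peak in each hypoxia list, against 0.456 over 8174 regions in all 3 lists. It was 0.370 and 0.397 for the pairs of lists that hold the comparison sets. Where both hypoxia percentiles were under 50, the order turned, with a rho of 0.182 over 254 normoxia-distant regions and of 0.00517 over 1301 regions in all 3 lists. Regions are not independent replicates, a narrower range of ranks lowers rho, and these values are given as a description. Hypoxia replicate 1 gave the higher percentile in 288 regions (57.8%).

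**Figure D2:**
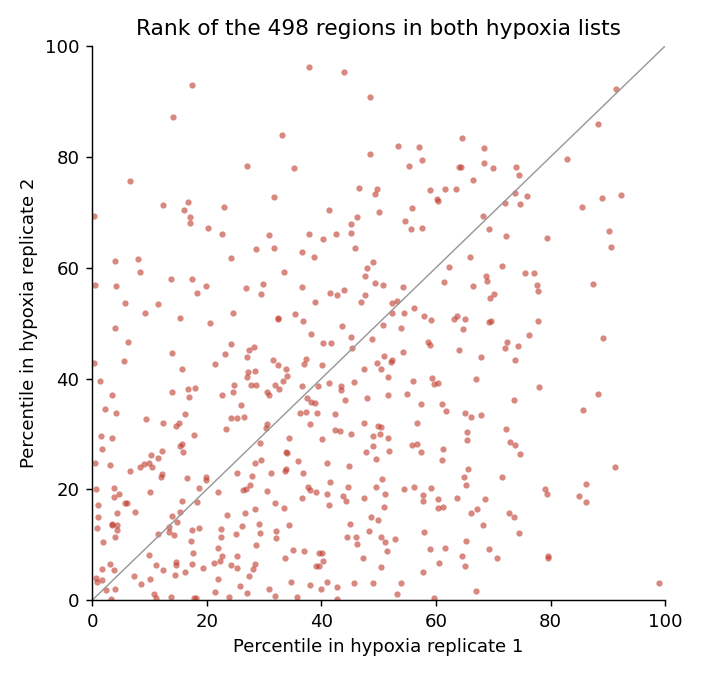
Percentile of each of the 498 normoxia-distant regions in hypoxia replicate 1 (x axis) and hypoxia replicate 2 (y axis), 1 point per region, with the line of equal percentiles. Most points lie in the lower left, 257 with both values under 50, and 2 reach 80 in both lists.

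The 3 widest normoxia-distant regions were ranked unequally by the hypoxia libraries or lay in the windows of hypoxia replicate 1. The widest was the chromosome 19 region of 1617 bp given above. Its peak was 1617 bp wide in hypoxia replicate 1 and 236 bp wide in hypoxia replicate 2. Next was chr8:26306356-26307888 with 1533 bp, which hypoxia replicate 1 placed at percentile 37.9 and hypoxia replicate 2 at 96.1, and 65.7 kb from normoxia. Its peaks in hypoxia replicates 1 and 2 were 248 and 1533 bp wide. The third, chr16:33962916-33964291 with 1376 bp, was placed at percentile 98.8 by hypoxia replicate 1 and at 3.20 by hypoxia replicate 2. It lay in one of the windows of hypoxia replicate 1 and was also the most remote, 2238 kb from the nearest normoxia peak. The other remote regions were chr19:21909535-21909890, 2129 kb away, at percentiles 45.7 and 39.4, and chr1:195066495-195066817, 1396 kb away, at 34.0 and 26.6. Neither of these lay in a window of hypoxia replicate 1, and their ranks in both hypoxia lists were low to middling.

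The 2 hypoxia libraries placed their peaks at nearly the same spot. Over the 492 normoxia-distant regions with 1 peak in each hypoxia list, the centres of the 2 peaks lay a median of 45.0 bp apart (39.5 to 49.0), with quartiles of 19.4 and 82.6 bp. The centres were within 100 bp of each other in 396 regions (80.5%, 76.8 to 83.7). In 406 regions (82.5%) the 2 peaks overlapped by at least 50% of both. Regions in all 3 lists gave the same median offset between the hypoxia peaks, 45.0 bp (43.5 to 46.5), with 77.9% within 100 bp. The comparison sets gave 50.5 bp for normoxia with hypoxia replicate 2 and 38.0 bp for normoxia with hypoxia replicate 1. The rule asks for touching or overlapping peaks, and narrow peaks cannot overlap and be far apart, so part of this closeness is set by the choice. Where both hypoxia percentiles were under 50, the offset was 49.0 bp (43 to 60) over 254 normoxia-distant regions and 62.5 bp (57.5 to 68.0) over 1301 regions in all 3 lists. Normoxia-distant peaks were also narrower at such ranks. From percentile 20 to 40 their median width was 229 bp against 282 bp in hypoxia replicate 1, and 269.5 bp against 309 bp in hypoxia replicate 2. What part width has in the smaller offset was not tested.

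Normoxia-distant regions were narrow, and width depends on which lists build a region, since all normoxia peaks had a median width of 379 bp and all peaks of hypoxia replicates 1 and 2 had 294 and 352 bp. The median width of the normoxia-distant regions was 343.5 bp (333 to 355), against 455 bp (448 to 468) and 367 bp (363 to 372) in the sets distant from hypoxia replicates 1 and 2. Both comparison sets include a normoxia peak. With equal list sizes the medians were 378, 497.5 and 369 bp, so the normoxia-distant set was then no longer the narrowest. The 396 hypoxia regions within 10 kb of a normoxia peak, built from the same 2 lists, had a median of 355 bp (342 to 367). Within 1 list, the normoxia-distant peaks of hypoxia replicate 1 had a median width of 245 bp, against 276 bp for the peaks of the set distant from hypoxia replicate 2. In hypoxia replicate 2 the normoxia-distant peaks had a median of 278 bp, against 329 bp in the set distant from hypoxia replicate 1. Low-ranking peaks are narrower in both hypoxia lists, so widths were compared within bands of 20 percentile points. In hypoxia replicate 1 up to percentile 20, the 123 normoxia-distant peaks and all 4376 peaks had the same median of 227 bp, and peaks of regions in all 3 lists had 254 bp. In hypoxia replicate 1 from percentile 40 to 60, the 135 normoxia-distant peaks had a median of 252 bp, the 1780 peaks of regions in all 3 lists 324 bp, and all 4389 peaks 276 bp. From 60 to 80, the 92 normoxia-distant peaks had a median of 263 bp, against 361 and 326 bp. In hypoxia replicate 2 from percentile 40 to 60, the medians were 287.5 bp over 108 normoxia-distant peaks, 350.0 bp in regions of all 3 lists and 332 bp over all peaks. In the 5 bands of both lists, the normoxia-distant peaks had lower medians than those of regions in all 3 lists. Of the 498 regions, 492 held a single peak of each hypoxia list and 6 held more.

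The nearest normoxia peak lay a median of 54.5 kb (50.6 to 62.3) from a normoxia-distant region, with quartiles of 25.6 and 119.5 kb. It was over 50 kb away from 273 regions (54.8%), over 100 kb from 157 (31.5%, 27.6 to 35.7) and over 1000 kb from 6. The median gap to the missing list was 48.2 kb (44.7 to 52.3) in the set distant from hypoxia replicate 1 and 48.3 kb (45.9 to 51.3) in the set distant from hypoxia replicate 2. The shares over 100 kb were 25.1% (22.6 to 27.7) and 28.0% (26.3 to 29.7). Distances depend on how many peaks the missing list holds and on how they are spread, and hypoxia replicate 2 has the fewest.

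**Figure D3:**
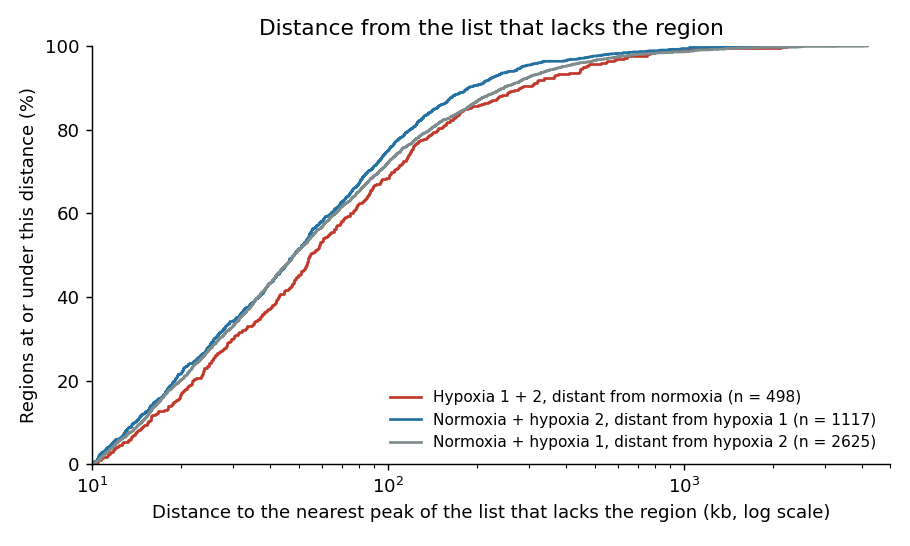
Distance from each region to the nearest peak of the list that lacks it (x axis, kb, log scale) against the percent of regions at or under that distance (y axis), for the 498 normoxia-distant regions and the sets distant from hypoxia replicate 1 (1117) and hypoxia replicate 2 (2625). The normoxia-distant line lies to the right of both others over most of the range, with medians of 54.5, 48.2 and 48.3 kb.

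The normoxia peak nearest to a normoxia-distant region was of an ordinary kind. In 251 cases (50.4%, 46.0 to 54.8) it belonged to a region in all 3 lists, which make up 48.0% of all regions with a normoxia peak. In 94 cases (18.9%) it belonged to a region of normoxia alone, which make up 19.2%. Its median percentile in the normoxia list was 48.4 (44.9 to 53.3).

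At a distance of 10 kb most normoxia-distant regions stood alone, and at 50 and 100 kb most had a neighbour. No other region of any kind lay within 10 kb of 413 of them (82.9%, 79.4 to 86.0), within 50 kb of 196 (39.4%, 35.2 to 43.7) or within 100 kb of 113 (22.7%, 19.2 to 26.6). Peaks of the missing list are absent within 10 kb by rule, in each of the 3 sets. In the sets distant from hypoxia replicates 1 and 2, such solitary regions made up 78.7% (76.2 to 81.0) and 67.3% (65.5 to 69.1) at 10 kb, 33.2% (30.5 to 36.0) and 25.1% (23.5 to 26.8) at 50 kb, and 14.1% (12.2 to 16.3) and 12.1% (10.9 to 13.4) at 100 kb. With equal list sizes the 3 sets lay closer together, at 81.7%, 78.9% and 77.8% at 10 kb and at 37.6%, 35.3% and 31.5% at 50 kb. The intervals of the normoxia-distant set and the set distant from hypoxia replicate 1 overlap at both distances. At 100 kb the shares were then 23.3% (20.4 to 26.6), 16.5% (14.9 to 18.4) and 15.6% (13.7 to 17.7). Within 10 kb, a region of hypoxia replicate 1 alone lay beside 52 normoxia-distant regions (10.4%) and a region of hypoxia replicate 2 alone beside 28 (5.62%). Regions of hypoxia replicate 1 alone are the more common kind, at 29.9% of all regions with a peak of that list. For hypoxia replicate 2 that share is 11.3%, so the 2 counts do not compare the replicates. A region in all 3 lists was found within 50 kb of 144 normoxia-distant regions (28.9%) and within 100 kb of 245 (49.2%). For the sets distant from hypoxia replicates 1 and 2 these shares were 33.6% and 41.8% at 50 kb. At 100 kb they were 54.8% and 62.2%.

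Few normoxia-distant regions came in groups. Another one lay within 50 kb of 30 of them (6.02%), in 12 groups of 2 and 2 groups of 3. In the comparison sets, 13.3% and 26.2% had another region of their own set within 50 kb, but these sets hold more regions over the same genome. The 498 regions fell into 464 intervals between consecutive normoxia peaks, of which 434 held 1, 28 held 2, 1 held 3 and 1 held 5.

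The interval with 5 normoxia-distant regions spanned 970.1 kb on chromosome 22, from 27055117 to 28025261. A set of 3 lay within 8334 bp, at chr22:27503773-27504093, chr22:27509166-27509466 and chr22:27511811-27512106. Their percentiles in hypoxia replicate 1 were 33.6, 40.1 and 65.5, and in hypoxia replicate 2 they were 16.6, 42.5 and 23.6. The nearest normoxia peaks were 448.7 to 456.7 kb away. A further pair lay within 2003 bp, at chr22:27871005-27871268 (percentiles 17.6 and 8.55 in hypoxia replicates 1 and 2) and chr22:27872682-27873007 (1.43 and 39.5). The interval also held 1 region of hypoxia replicate 1 alone and 1 of hypoxia replicate 2 alone. All 5 were thus shared by both hypoxia lists at low or middle rank. The normoxia peak at the left end was itself among the weakest of its list, at percentile 0.564, and that at the right end was at 29.5.

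**Figure D4:**
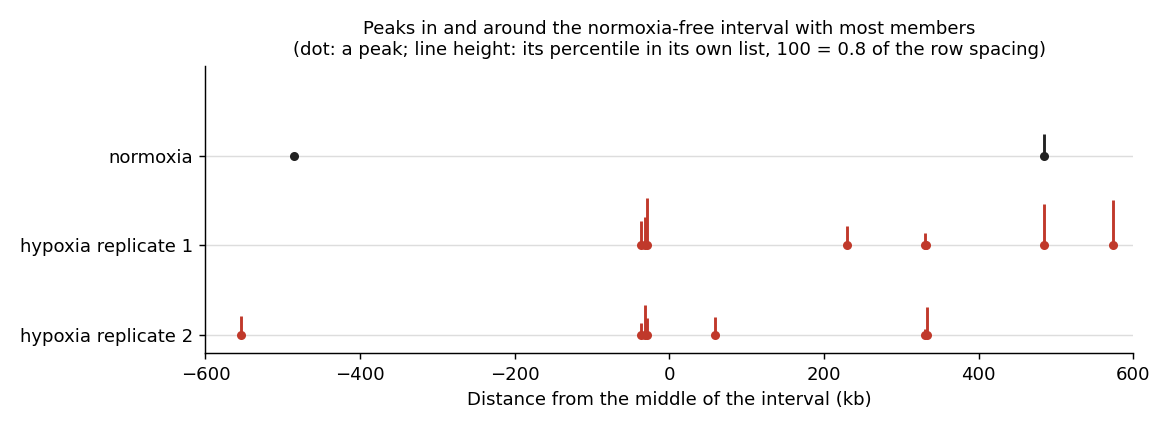
Peaks of the 3 lists along the chromosome 22 interval, by distance from its middle (x axis, kb). Each dot is a peak and the line above it shows its percentile within its own list. Both hypoxia rows have 3 peaks close together left of the middle and 2 near 331 kb, where the normoxia row is empty between its peaks at both ends.

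The other group of 3 lay on chromosome 19 over 60922 bp, at chr19:36103509-36103834, chr19:36119793-36120183 and chr19:36164053-36164430. The percentiles in hypoxia replicate 1 were 14.7, 47.8 and 0.389, and those in hypoxia replicate 2 were 6.86, 26.8 and 69.3. Normoxia peaks were closer here, at 14.0 to 30.3 kb. On chromosome 5, the high-ranking region given above had a weaker neighbour, chr5:133984167-133984477, at percentiles 33.8 and 41.8.

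On 20 of 23 chromosomes the share of all regions lay inside the interval of the normoxia-distant share. These intervals are wide, so a share inside one can still differ. The exceptions were chromosomes 6, 18 and X, and the sets distant from hypoxia replicates 1 and 2 had 3 and 6 such exceptions. Larger sets have narrower intervals, so the numbers of exceptions do not compare the sets. Chromosome 1 held 47 (9.44%), against 9.39% of all regions, and chromosome 6 held 39 (7.83%, 5.78 to 10.5), against 5.63%. Chromosome 17 held 22 (4.42%, 2.94 to 6.60), against 6.54% of all regions. Chromosome 19 held 23 (4.62%, 3.10 to 6.83), against 6.02%, and in the comparison sets it held 4.30% and 4.08%. Chromosome 18 held 16 (3.21%, 1.99 to 5.15), against 1.67% (1.53 to 1.83) of all regions and 1.43% (0.884 to 2.31) and 1.90% (1.45 to 2.50) of the comparison sets. Its interval overlaps those of both comparison sets. Chromosome X held 16 (3.21%), against 1.93% of all regions and 2.24% and 2.29% of the comparison sets.

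**Figure D5:**
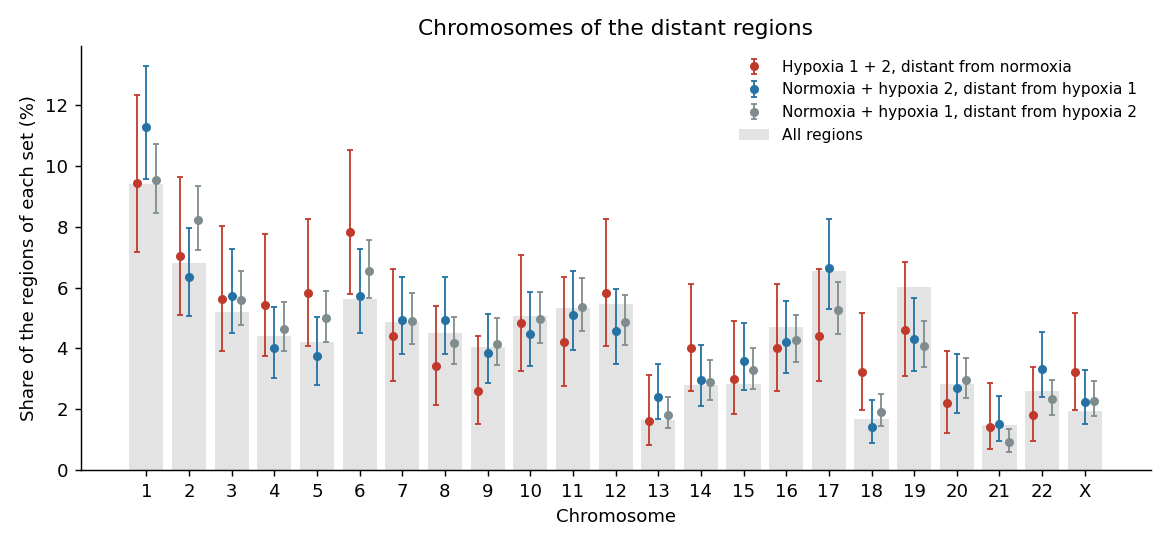
Share of each set of regions (y axis, percent) on chromosomes 1 to 22 and X (x axis). Points with Wilson 95% intervals are the normoxia-distant regions and both comparison sets, and grey bars are all 28023 regions. The normoxia-distant points have the bar inside their interval on 20 of 23 chromosomes, with chromosome 18 above its bar (3.21% against 1.67%).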

How the data were processed

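The deposited files were 3 CDK8 peak lists of HCT116 cells, 1 per library, from normoxia and hypoxia replicates 1 and 2. The submitters' processing notes name MACS2 2.0.9, Bowtie 0.12.7, CASAVA 1.8.2 and FastQC, and the build GRCh37/hg19. The role of each tool and the calling threshold were not given in the sources used here. File names say that something was merged, not what. The deposited score of each peak is the authors' value on an unstated scale. Peak starts and ends are deposited in bp, counted from 0, and are printed counted from 1.

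Peaks were joined and distances measured with pandas 2.3.3, numpy 2.4.6 and scipy 1.17.1 (Python 3.11.15). Of several peaks of a list in a region, the best percentile was taken. The code was tested on 6000 simulated regions, and the number found in each class equalled the number made. The placement of single regions was not checked. Precision is limited by unknown depth and by 1 normoxia library.

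The members and lists were chosen with earlier results of these data known. Regions named are the 10 best by lower percentile, the 3 widest, the 3 most remote, 3 on each side of the limit, the 3 fullest groups and the 3 best of each comparison set. The interval on chromosome 22, the region-free stretches, the offsets between peak centres and the bands of percentiles were added after values were seen. Planned results on motifs, base composition, gene position and a list of hypoxia genes needed a genome or annotation of GRCh37 and were not run.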

Additional observations from a re-analysis of the deposited data

Results flagged for a closer look

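Hypoxia replicate 1 listed 122 peaks on chromosome Y, which the rule leaves out, and normoxia and hypoxia replicate 2 listed 0 there.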

How the results depend on the processing

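The normoxia-distant set was the smallest of the 3 in each alternative run for all 3 sets. Counts are given in the order distant from normoxia, from hypoxia replicate 1 and from hypoxia replicate 2. They were 273, 542 and 1279 with a distance of 50 kb, and 894, 1871 and 4463 with overlap alone. Using the better-scoring 50% of the 2 lists that hold the region and the missing list whole gave 68, 264 and 601. With the better-scoring 50% of each list the set distant from hypoxia replicate 2 fell to 1699, and with equal list sizes the sets distant from hypoxia replicates 1 and 2 held 1710 and 1249. The normoxia-distant set held 720 with equal list sizes, of which 278 overlapped one of the 498. Distances of 5 and 20 kb, joining within 500 bp, an overlap of 50% of both peaks and leaving out the windows of hypoxia replicate 1 kept the counts within 1.5 times. Leaving out either hypoxia library gave 1288 to 4212 normoxia-distant regions, so the count rests on having both.

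Median widths rose to 378 and 497.5 bp in the first 2 sets with equal list sizes, and to 400.0, 541 and 445 bp with the better-scoring 50% of each list. That of the set distant from hypoxia replicate 2 was 357 bp at 50 kb, and its median lower percentile was 26.6 with equal list sizes. With equal list sizes, solitary regions in that set made up 77.8%, 31.5% and 15.6% within 10, 50 and 100 kb, and 16.5% within 100 kb in the set distant from hypoxia replicate 1. Of the 10 best normoxia-distant regions, 8 stayed at 20 kb and 4 at 50 kb. Fewer peaks or another distance change these counts by construction. For other shifts the cause was not tested. No paired analysis was possible because normoxia has a single library with no replicate number in the labels. Sequence and gene alternatives were not run.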
